A study of Mus musculus with 8 samples.

Results

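The genes examined are 10 central members of the NRF2, thioredoxin and glutathione systems: Nfe2l2, Keap1, Nqo1, Gclc, Gclm, Gsr, Srxn1, Prdx1, Txn1 and Txnrd1. They were chosen by name, with earlier results of these data known. A row of the deposited array table was taken for a gene when the platform annotation gave that symbol alone, and the row with the highest mean over the 8 arrays was used. All 10 genes were found, among 19310 genes with such a row, and Prdx1 alone had a second row. RNA of epididymal white adipose tissue, which lies beside the epididymis, was measured in 4 samples with the genotype WT and 4 with the genotype Rev-erb alpha KO. Rev-erb alpha is a nuclear receptor of the circadian clock that represses transcription and is encoded by Nr1d1. All samples came from C57BL/6 males aged 12 to 15 weeks on a standard diet in a cycle of 12 h light and 12 h dark, and tissue was taken at Zeitgeber time 10 (hours after lights on). The labels do not say how the gene was disrupted or whether each replicate was a separate mouse, so p-values cover only the spread between samples, which may be technical.

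NRF2, encoded by Nfe2l2, is a transcription factor that pairs with small MAF proteins on antioxidant response elements and drives genes against oxidants and electrophiles. KEAP1 holds it in the cytoplasm and, with the CUL3 ubiquitin ligase, marks it for degradation until oxidants modify cysteines of KEAP1, so the activity of NRF2 is set largely at the protein. Its targets feed the glutathione and thioredoxin systems, which spend NADPH to keep protein thiols reduced and to remove peroxides, and which in fat also bear on adipocyte differentiation and insulin action.

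Array medians lay between 5.90 and 5.95 log2, and Pearson correlations between arrays, taken across genes, which are no replicates, were at least 0.994 within groups and 0.989 to 0.994 across them. Of 10 listed adipocyte markers 9 were measured, and their mean was 12.2 to 12.3 log2 in every wild-type and every knockout-labelled array. The mean of 7 epididymis markers was 3.88 to 3.99 log2. The row of the targeted gene Nr1d1 averaged 9.40 ± 0.33 log2 in wild type and 9.14 ± 0.35 in the other group (SD, n = 4 each), a difference of −0.26 (SE 0.19, limma adjusted p = 0.479). Whether that row reads the disrupted stretch is not known, so the row does not check the genotype, and the arrays are called knockout-labelled. In bulk tissue, fewer cells of a type and less RNA per cell cannot be told apart.

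Several of these genes are textbook NRF2 targets, so their start sites were searched for the core of the antioxidant response element, TGACNNNGC or TGAGNNNGC on either strand. The searched windows were those RefSeq gives on GRCm38.p6, 250 bases before to 50 after each start, and 8 of the 10 genes had an entry, with 10 starts in all. A match lay at 5 of these 10 starts, those of Nfe2l2, Gclm, Srxn1 and Prdx1 and the second of the 3 starts of Txnrd1, while 27.8% of all 32851 windows held one. The stretches that hold the upstream matches are shown on the gene's strand, 5′ to 3′, with the matched letters in capitals.
Txnrd1, chr10:82859086-82859136, plus strand: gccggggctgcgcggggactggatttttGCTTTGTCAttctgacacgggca
Prdx1, chr4:116685439-116685494, plus strand: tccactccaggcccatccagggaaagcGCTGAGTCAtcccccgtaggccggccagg
Gclm, chr3:122245397-122245452, plus strand: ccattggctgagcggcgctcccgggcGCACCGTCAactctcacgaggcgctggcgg
Nfe2l2, chr2:75704878-75704913, minus strand: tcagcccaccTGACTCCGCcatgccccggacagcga
Srxn1, chr2:152105304-152105493, plus strand: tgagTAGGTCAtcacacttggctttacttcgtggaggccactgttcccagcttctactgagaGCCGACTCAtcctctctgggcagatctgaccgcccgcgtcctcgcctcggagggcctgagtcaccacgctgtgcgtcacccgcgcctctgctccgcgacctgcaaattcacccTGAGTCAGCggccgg

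The Srxn1 stretch also carries TAGGTCA, a core of the element that Rev-erb and ROR receptors bind, in capitals at its upstream end. This gene's window held TAGGTCA at −216 and again at 31 from the start, where it overlaps a match of TGACNNNGC on the opposite strand. No other member window held it, against 2.61% of all windows with at least 1 copy and 0.0731% with at least 2. In Srxn1 the upstream antioxidant element matches began at −158 and −45, in Prdx1 at −133, in Gclm at −134, in Txnrd1 at −92 and in Nfe2l2 at −240. Prdx1 had a further match at 16. A match of letters is a description of the sequence and says nothing of binding.

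Among the 10 genes, Txnrd1 was lower in the knockout-labelled tissue at an adjusted p under 0.05 over all 20748 tested rows, and no member was higher. Txnrd1 encodes the cytosolic thioredoxin reductase, a selenoprotein that passes electrons from NADPH to thioredoxin. Across all genes 3.61% were called lower and 3.89% higher, so 1 lower member of 10 is the smallest count above 0 and nothing is read from it about the set. At an unadjusted p under 0.05 the count was 3 of 10, all lower, where 11.6% of all genes were lower at that limit. The differences were small: they ran from −0.24 to 0.12 log2 with a median of −0.08, against −0.0061 over all genes, and 8 of the 10 were below 0, as were 51.9% of all genes. The median absolute difference was 0.10 log2 for the members and 0.08 for all genes.

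**Figure D1:**
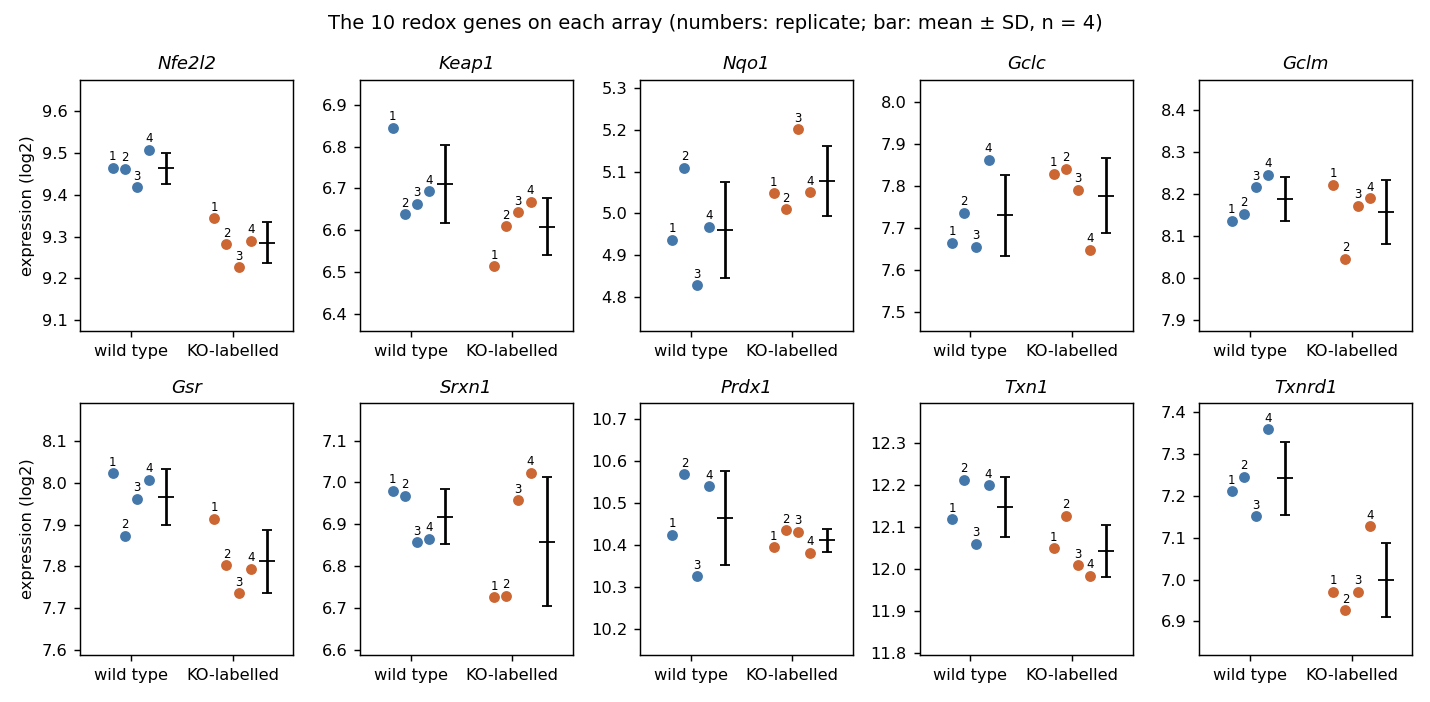
Log2 expression (vertical axis, each panel spanning the same range of log2 units) of the 10 genes in the 4 wild-type (blue) and 4 knockout-labelled (orange) arrays, numbered by replicate, with mean ± SD. All knockout-labelled arrays lie below all wild-type arrays for Nfe2l2 and Txnrd1, and the groups overlap for the other 8.

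Nfe2l2 (row 10483809), the gene of NRF2 itself, read 9.46, 9.46, 9.42 and 9.51 log2 in wild-type arrays 1 to 4 and 9.34, 9.28, 9.23 and 9.29 in knockout-labelled arrays 1 to 4. The groups did not overlap, with 0.07 log2 between the lowest wild-type and the highest knockout-labelled array. The difference of −0.18 log2 (SE 0.050, 95% interval −0.29 to −0.07), or 0.884-fold, did not pass over all rows (limma adjusted p = 0.0595). It passed with the dimmest 33.3% of rows left out (adjusted p = 0.0395) and with trend and robust eBayes (0.0419). In the other 16 alternative fits it did not pass (adjusted p up to 0.258). Among them was every fit with 1 array left out (0.0597 to 0.146). The difference lay between −0.20 and −0.15 log2 in all 18 alternative fits. The wild-type SD of this gene, 0.037 log2, was the smallest of the 10.

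Keap1 (row 10591482), the gene of the NRF2 inhibitor, stood at 6.84, 6.64, 6.66 and 6.69 log2 in wild type and at 6.51, 6.61, 6.64 and 6.67 in the knockout-labelled ones. Wild-type array 1 was the highest and knockout-labelled array 1 the lowest, and the other 6 arrays fell within a narrow common range. The difference was −0.10 log2 (SE 0.062, interval −0.24 to 0.04, limma adjusted p = 0.392), so a decrease of 0.24 log2 is within its interval and an increase of more than 0.04 is not.

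Nqo1 (row 10581538), the quinone reductase often used as the reporter of NRF2 activity, read 4.94, 5.11, 4.83 and 4.97 log2 in wild type and 5.05, 5.01, 5.20 and 5.05 in the knockout-labelled arrays. These values lie under every array's median, and without detection calls it is not known whether they exceed background. The difference, 0.12 log2 (SE 0.070, interval −0.04 to 0.27), was the highest of the 10 and did not pass (limma adjusted p = 0.377). Wild-type array 2 lay above 3 of the 4 knockout-labelled arrays, so the groups overlapped.

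The enzymes of glutathione supply did not pass either. Gclc (row 10587266), the catalytic subunit of glutamate-cysteine ligase, read 7.67, 7.74, 7.66 and 7.86 log2 in wild type and 7.83, 7.84, 7.79 and 7.65 in the knockout-labelled arrays. In each group 1 array stood apart in the direction of the other group, wild-type array 4 as the highest and knockout-labelled array 4 as the lowest of all 8. The difference was 0.05 log2 (SE 0.067, interval −0.10 to 0.20, limma adjusted p = 0.745).

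Gclm (row 10495763), the modifier subunit that lowers the ligase's sensitivity to glutathione, read 8.14, 8.15, 8.22 and 8.25 log2 in wild type and 8.22, 8.05, 8.17 and 8.19 in the knockout-labelled arrays. Its difference was the smallest of the 10 in size, −0.03 log2 (SE 0.057, interval −0.16 to 0.09, limma adjusted p = 0.813). It was 0.0062 without knockout-labelled array 2, the lowest array of this gene. Gss, the enzyme that completes glutathione and named here for its place in the pathway after its value was seen, differed by 0.0060 log2 (SE 0.066, limma adjusted p = 0.971).

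Gsr (row 10571274), which returns oxidised glutathione to the reduced form with NADPH, read 8.02, 7.87, 7.96 and 8.01 log2 in wild type and 7.91, 7.80, 7.74 and 7.79 in the knockout-labelled arrays. Only wild-type array 2 and knockout-labelled array 1 crossed, by 0.04 log2. The difference of −0.15 log2 (SE 0.058, interval −0.28 to −0.02), 0.899-fold, had an unadjusted limma p of 0.0242 and an adjusted p of 0.151, and did not pass in any of 18 alternative fits (adjusted p 0.0941 to 0.495).

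**Figure D2:**
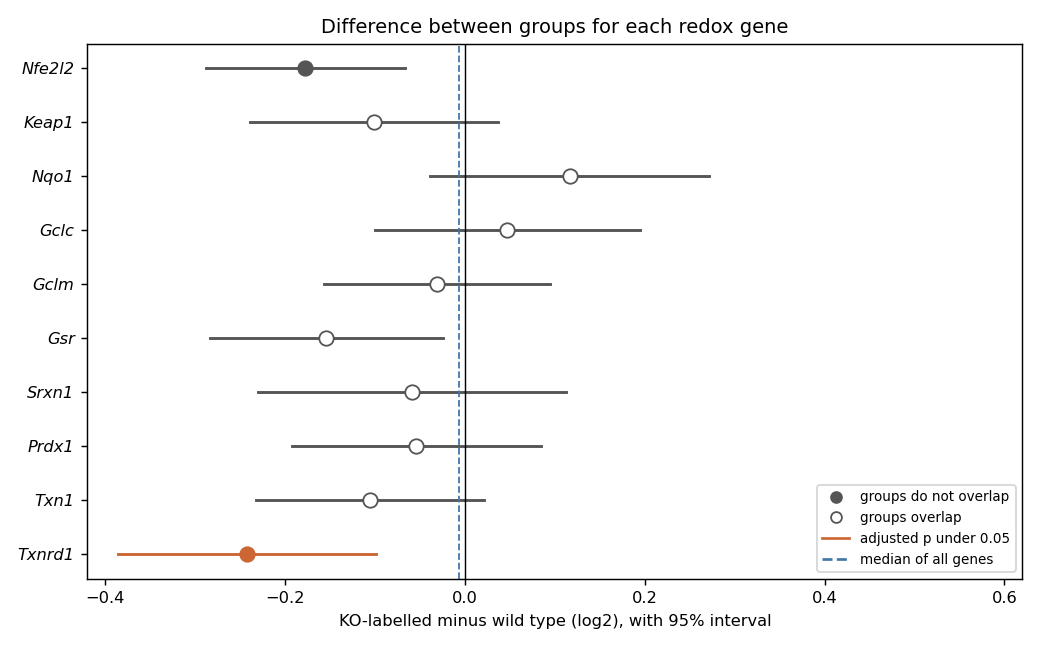
Difference between knockout-labelled and wild-type arrays (horizontal axis, log2) for each of the 10 genes, with 95% interval and the median of all genes as a dashed line. The intervals of Nfe2l2, Gsr and Txnrd1 lie below 0, and only that of Txnrd1 belongs to a gene with adjusted p under 0.05.

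In the thioredoxin system, the 2 partners of the electron chain were both below wild type on average, and 1 of them passed. Txnrd1 (row 10365260) stood at 7.21, 7.24, 7.15 and 7.36 log2 in wild type and at 6.97, 6.93, 6.97 and 7.13 in the knockout-labelled arrays. The groups did not overlap, but knockout-labelled array 4 came within 0.02 log2 of wild-type array 3. The level went from 7.24 ± 0.09 to 7.00 ± 0.09 log2 (SD, n = 4 each), a difference of −0.24 (SE 0.065, interval −0.39 to −0.10) or 0.845-fold, with a limma adjusted p of 0.0486 and the smallest exact two-sided permutation p that 4 against 4 arrays allow, 0.0286.

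The call of Txnrd1 rested close to the threshold. It was lost in 13 of 18 alternative fits, among them both other normalizations (adjusted p 0.0576 and 0.0688), the replicate block (0.0544) and every fit with 1 array left out except that without knockout-labelled array 4 (0.0384, against 0.0574 to 0.125 in the other 7). The difference itself stayed between −0.29 and −0.19 log2 throughout.

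**Figure D3:**
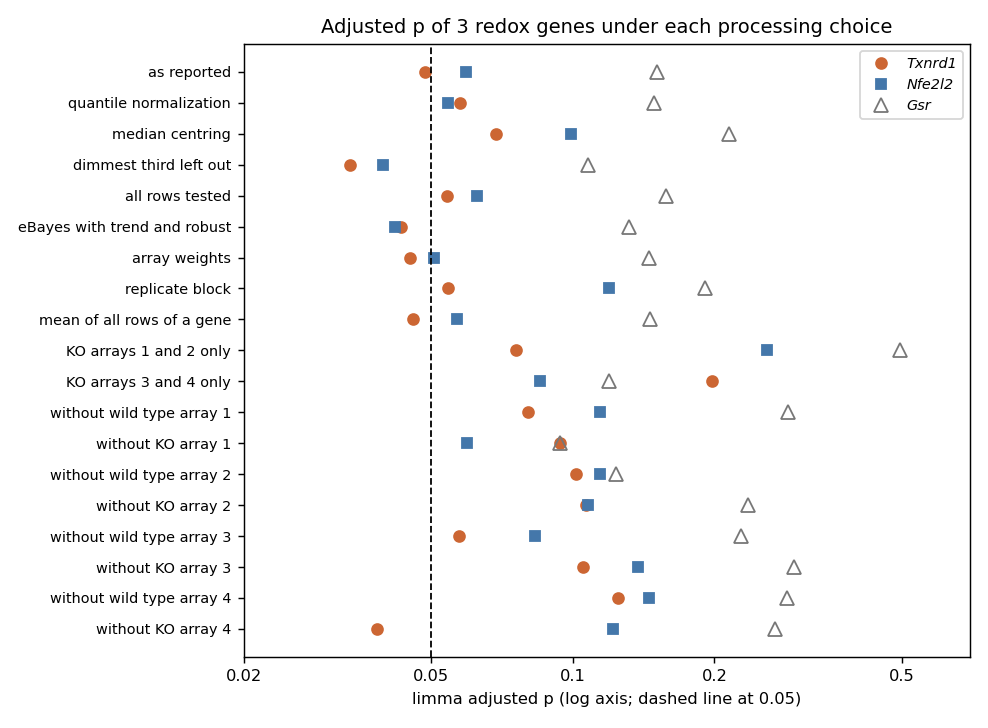
Limma adjusted p (horizontal log axis, dashed line at 0.05) of Txnrd1, Nfe2l2 and Gsr as reported and in each of 18 alternative fits. Txnrd1 lies left of the line as reported and in 5 alternatives, Nfe2l2 in 2 and Gsr in none.

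Txn1 (row 10513195), the cytosolic thioredoxin that TXNRD1 reduces, read 12.12, 12.21, 12.06 and 12.20 log2 in wild type and 12.05, 12.13, 12.01 and 11.98 in the knockout-labelled arrays. The 3 lowest arrays were knockout-labelled and the 2 highest wild type, with an overlap between. The difference of −0.11 log2 (SE 0.057, interval −0.23 to 0.02) did not pass (limma adjusted p = 0.323).

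Prdx1, the peroxiredoxin that thioredoxin recycles after it has reduced a peroxide, had 2 rows. The brighter (row 10436048) read 10.43, 10.57, 10.33 and 10.54 log2 in wild type and 10.39, 10.44, 10.43 and 10.38 in the knockout-labelled arrays, where the SD was 0.026 against 0.11 in wild type. All 4 knockout-labelled arrays lay inside the wild-type range. Differences were −0.05 log2 (SE 0.062, interval −0.19 to 0.08, limma adjusted p = 0.683) on this row and −0.06 (SE 0.052, adjusted p = 0.551) on the other (row 10507328), so both rows gave a like value. The annotation lists the same transcripts for both, and which copy each row reads is not known.

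Srxn1 (row 10477061), sulfiredoxin, which repairs overoxidised peroxiredoxins, split the knockout-labelled group. It read 6.98, 6.97, 6.86 and 6.87 log2 in wild type, 6.73 and 6.73 in knockout-labelled arrays 1 and 2, and 6.96 and 7.02 in arrays 3 and 4. Arrays 1 and 2 lay below every wild-type array and arrays 3 and 4 within or above their range, and the SD of 0.15 log2 was the largest of any member in either group. The difference over all arrays was −0.06 log2 (SE 0.077, interval −0.23 to 0.11, limma adjusted p = 0.726). It was −0.19 with knockout-labelled arrays 1 and 2 alone (adjusted p = 0.187) and 0.07 with arrays 3 and 4 alone (0.595). Among the other members the step from arrays 1 and 2 to arrays 3 and 4 was 0.12 log2 or less in size, against 0.26 for Srxn1.

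Wild-type array 3 was the lowest wild-type array for 7 of the 10 members and array 4 the highest for 4, while no knockout-labelled array was the lowest for more than 3. Averaged over the 10 rows, array 3 stood at 8.11 log2, the other wild-type arrays at 8.18 to 8.23 and the knockout-labelled arrays at 8.08 to 8.12. Non-overlap of the groups was seen for 2 of 10 members in the lower direction and 0 in the higher, where 8.26% and 7.29% of all genes did so.

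By profile over the 8 arrays, each centred on its mean, the genes closest to Txnrd1 among 19300 others were Unc5c, Zfp326 and Urgcp. Unc5c, a netrin receptor gene, differed from it by 0.028 log2 (root mean square), and Zfp326 and Urgcp by 0.036 and 0.051, where the median gene differed by 0.171. Of the members, Nfe2l2 came closest at 0.075, and 72 other genes were closer. The 3 named genes had differences of −0.21, −0.24 and −0.26 log2 between the groups, and Urgcp was called lower (limma adjusted p = 0.0270). Differences near that of Txnrd1 follow from how these genes were picked and are no separate result. The Unc5c values, 4.52 to 4.89 log2, lie under every array's median.

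Around the members, 113 of 121 listed genes of 8 redox lists were measured. Of these, 16 (14.2%) were called higher and 8 (7.08%) lower, where 3.89% and 3.61% of all genes were. Their median was 0.0094 log2. The count called lower was 5 without knockout-labelled array 1 or 3 or wild-type array 2, 4 without wild-type array 3, 3 without knockout-labelled array 4 and 2 without wild-type array 4. The lists came from textbook knowledge but were chosen with earlier results of these data known, so the counts are not an unselected sample. Each gene counts once in the sum. The same shares of all genes stand beside the count of each list, where 1 call is the smallest above 0. No set test was run. Regulators of NRF2 gave 0 calls in 15 genes at a list median of 0.04 log2. The ubiquitin ligase adaptor gene Btrc had the smallest p of them (−0.21 log2, SE 0.072, limma adjusted p = 0.107).

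**Figure D4:**
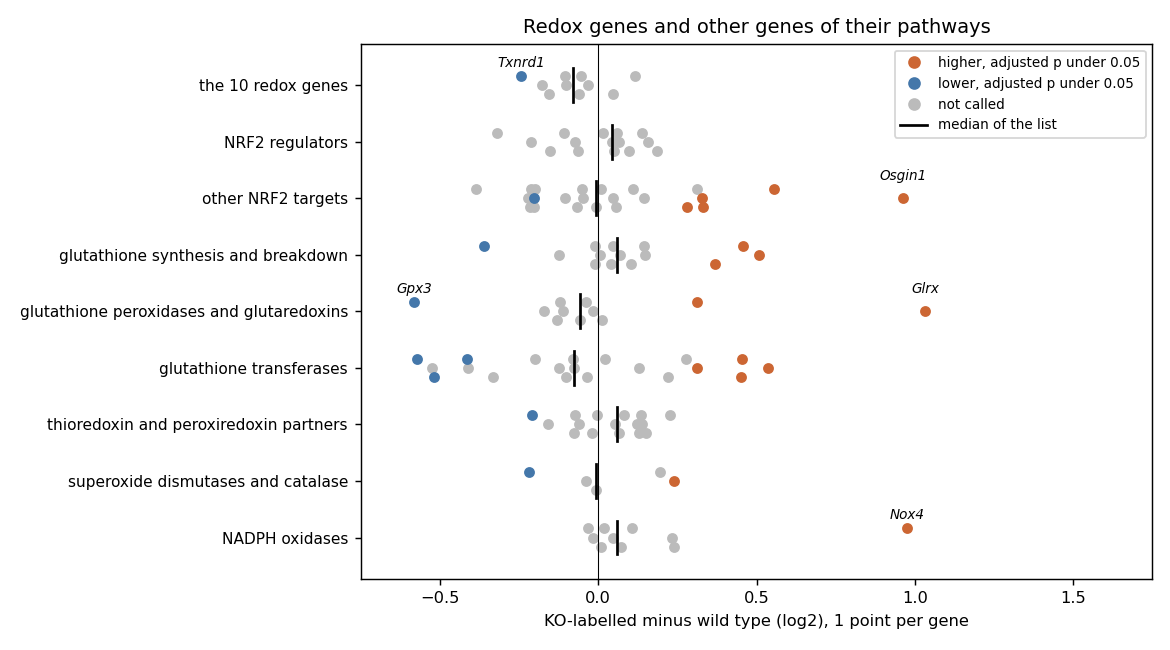
Difference between knockout-labelled and wild-type arrays (horizontal axis, log2) of the 10 genes and of the measured genes of 8 redox lists, 1 point per gene, coloured where the adjusted p was under 0.05, with each list's median as a bar. Calls in both directions lie outside the row of the 10 genes, with Glrx, Osgin1 and Nox4 near 1 log2.

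Other NRF2 targets included larger differences than any member showed. Of 23 measured, 5 were higher and 1 lower, with a median of −0.0067 log2. Osgin1, an oxidative stress induced growth inhibitor gene, read 6.13, 6.17, 6.28 and 6.27 log2 in wild type and 7.20, 7.15, 7.35 and 7.01 in the knockout-labelled arrays, a 1.95-fold increase (0.96 log2, SE 0.075, limma adjusted p = 9.6e-05). The epoxide hydrolase gene Ephx1 (0.56 log2, SE 0.091), the heme transporter gene Slc48a1 (0.33, SE 0.052) and Trim16 (0.28, SE 0.050) were higher too. Hmox1, the heme oxygenase gene, and named after its value was seen, differed by −0.20 log2 (SE 0.075, adjusted p = 0.144).

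For glutathione synthesis and breakdown, 3 of 14 genes were higher and 1 lower, at a median of 0.06 log2. The cysteine makers Cth (0.46 log2, SE 0.084, limma adjusted p = 0.00958) and Cbs (0.37, SE 0.069) and the amino acid transporter chain Slc3a2 (0.51, SE 0.084) were higher, and the 5-oxoprolinase gene Oplah was lower (−0.36, SE 0.078). Leaving out array 4 of either group or wild-type array 3 ended the call of Oplah (adjusted p up to 0.0624), as did the replicate block.

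Of 11 glutathione peroxidases and glutaredoxins, 2 were higher and 1 lower, at a median of −0.06 log2. Glrx, the cytosolic glutaredoxin that uses glutathione to reduce protein disulfides, read 5.75, 6.13, 5.99 and 5.79 log2 in wild type and 7.12, 6.99, 6.81 and 6.88 in the knockout-labelled arrays. The groups were well apart, a 2.04-fold increase (1.03 log2, SE 0.095, limma adjusted p = 0.000205). Gpx8, a peroxidase of the endoplasmic reticulum, was higher by 0.31 log2 (SE 0.061). Gpx3, the secreted peroxidase, fell by 0.58 log2 (SE 0.15, adjusted p = 0.0396), with knockout-labelled array 2 at 11.6 inside the wild-type range, and kept its call in only 1 of 8 fits with an array left out, that without knockout-labelled array 2 (0.00688, against up to 0.103).

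Glutathione transferases held 4 increases and 3 decreases among 20 genes, at a median of −0.08 log2. Gstm1, Gstm4 and Gstm3 of the mu class were higher by 0.54 (SE 0.070), 0.45 (SE 0.055) and 0.45 log2 (SE 0.061), with limma adjusted p of 0.0015, 0.00103 and 0.00194. Mu-class genes are alike in sequence, so array probes may not separate all of them, and the second Gstm3 row did not pass (0.19 log2, limma adjusted p = 0.287). The other mu-class genes measured are named after their values were seen. Gstm2 was called higher (0.31 log2), and Gstm5, Gstm6 and Gstm7 were not called (−0.52, 0.13 and −0.07). Wild-type SDs of these last genes were 0.61, 0.72 and 0.80 log2. Gstt3 of the theta class fell by 0.57 log2 (SE 0.097, adjusted p = 0.00655), and knockout-labelled array 3 was the lowest at 6.71. The other genes called lower, likewise named after their values were seen, were Mgst3 and Mgst1. They differed by −0.52 log2 (limma adjusted p = 0.0125) and −0.41 log2 (0.0178).

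**Figure D5:**
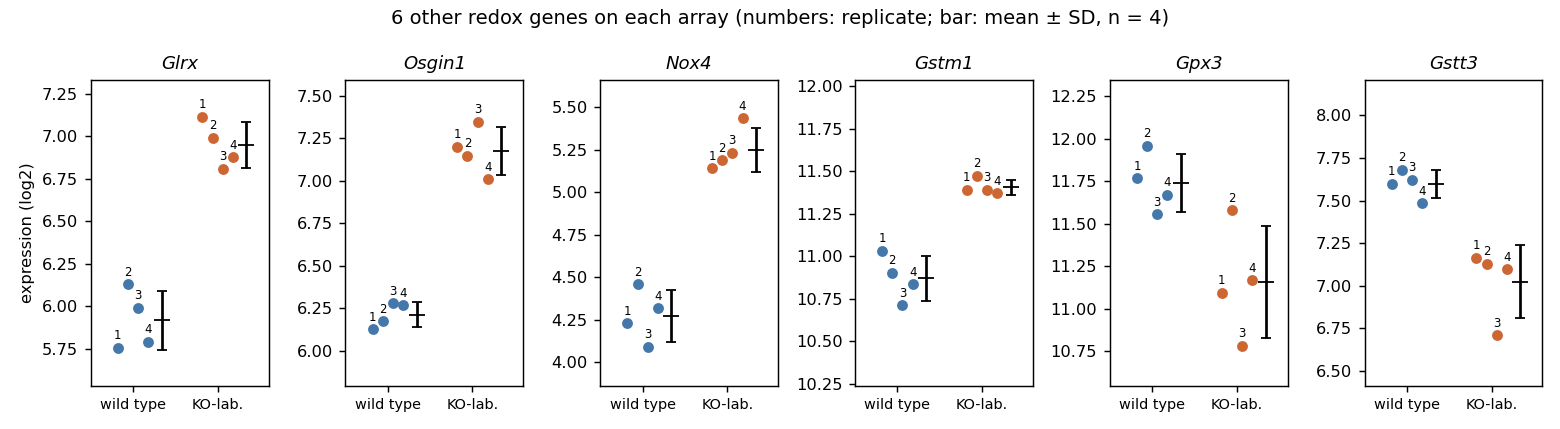
Log2 expression (vertical axis, same span in each panel) of Glrx, Osgin1, Nox4, Gstm1, Gpx3 and Gstt3 in the wild-type and knockout-labelled arrays, numbered by replicate, with mean ± SD. The groups are apart in every panel but that of Gpx3, where knockout-labelled array 2 lies among the wild-type arrays.

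Among thioredoxin and peroxiredoxin partners, 0 of 16 genes were higher and 1 lower, at a median of 0.06 log2. The lower gene was Txnrd3, the reductase known from testis (−0.21 log2, SE 0.051, limma adjusted p = 0.0360), whose call was kept in 6 of 18 alternative fits and, with 1 array left out, only without knockout-labelled array 2 (0.0351). Of 5 superoxide dismutase and catalase genes, cytosolic Sod1 was lower (−0.22 log2, SE 0.045, adjusted p = 0.0172) and secreted Sod3 higher (0.24, SE 0.057, adjusted p = 0.0300), and with 1 array left out Sod3 kept its call only without knockout-labelled array 1 (0.0323, against up to 0.0861), while Sod1 lost its call only without wild-type array 4 (0.0524). Of 10 NADPH oxidase genes Nox4, a source of hydrogen peroxide, was higher and none was lower. Nox4 went from 4.27 ± 0.15 to 5.25 ± 0.13 log2 (SD, n = 4 each, 1.97-fold, limma adjusted p = 0.000203). All its values lie under every array's median, and without detection calls it is not known whether they exceed background. Its row was absent from the fit without the dimmest 33.3%, and its call was kept in the 17 other alternative fits.

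Marker genes of other cell types moved beside these results. Across all genes 3.89% were called higher and 3.61% lower. Of 9 progenitor and fibroblast markers 6 were called higher and none lower, and their summed linear level was 7621 to 8711 in wild type and 8546 to 9473 in knockout-labelled arrays. Of 7 endothelial markers 2 were higher, with sums of 2786 to 3241 and 3229 to 3817. Macrophage markers had a list median of 0.09 log2 and summed to 2952 to 4201 and 3711 to 4487. Against that median Cd14 was called lower, and none of the other 9 was called. The sums of 9 adipocyte markers were 44813 to 47803 and 45873 to 47897. Lep was their only call, higher, at a list median of −0.04 log2. For every list summed here the ranges of both groups overlapped. The brightest progenitor and fibroblast marker, Dcn (12.3 log2 in wild type), weighs most in that sum and was not called (−0.14 log2). Of 6 mesothelial markers Msln was called higher (0.60 log2, limma adjusted p = 0.000791) and none lower, at a list median of −0.19 log2. No measured red blood cell, epididymis, liver or lymphocyte marker was called. None of these rows is at 0, and the part of these cell types in the differences of Txnrd1, Nfe2l2, Glrx or Nox4 was not tested.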

How the data were processed

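RNA of 8 samples was measured on a whole-transcript Affymetrix mouse array. The authors deposited log2 expression values; affy is the tool named in the submitters' processing notes, and the background correction, normalization and summarization are not given in the sources used here. The log2 scale was read from the values, 2.09 to 13.4. Array medians were nearly equal, so differences are relative to the bulk of rows and a general shift could not appear. Of 23346 rows, 20748 carried exactly 1 gene symbol and were tested, 1183 carried several and 1415 none. Knockout-labelled minus wild-type differences were estimated by lmFit and eBayes of limma 3.58.1 (R 4.3.3) with 2 groups and no other term, with two-sided p-values, Benjamini-Hochberg adjustment over all tested rows and a threshold of 0.05; intervals are 95% moderated intervals. Each gene was counted by its brightest row. The number of arrays, 4 a group, limits precision.

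All members were named, with Nr1d1. From each pathway list, genes called were named, the 4 with the smallest p where more were called, and the gene with the smallest p where none was. The 3 genes nearest in profile to the member with the largest difference were also named. A gene named apart from these is marked as such. The members and lists were chosen with earlier results of these data known. Correlations of the deviations of same-numbered arrays were −0.0674 to 0.134, over 0.1 only for the arrays numbered 2, and no pairing was used. Differently numbered arrays were not compared, so a pairing is not excluded. Alternatives were quantile normalization, median centring, a test of all rows, removal of the dimmest 33.3%, trend and robust eBayes, array weights, the replicate block, the mean of a gene's rows, knockout-labelled arrays 1 and 2 or 3 and 4 alone, leaving out each array, an adjusted p under 0.10 and a 1.5-fold minimum. RefSeq start sites of GRCm38.p6 served for sequences only.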

Additional observations from a re-analysis of the deposited data

Results flagged for a closer look

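Of 60 groups of 4 arrays examined for 30 named genes, 3 had an array far from its fellows, where chance alone gives about 1 in 20. No member was among them. For Cth, wild-type array 3 (6.67 log2) had a gap of 0.946 of its group's range, and knockout-labelled array 3 (7.26 log2) a gap of 0.874. For Gstt3, knockout-labelled array 3 (6.71 log2) had a gap of 0.848. Both genes kept their calls in all 18 alternative fits.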

How the results depend on the processing

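No member was called higher in any alternative. The count called lower, 1 as reported, was 0 with quantile normalization, median centring, all rows tested, the replicate block, knockout-labelled arrays 1 and 2 alone, arrays 3 and 4 alone or a 1.5-fold minimum, 2 with the dimmest 33.3% of rows left out, trend and robust eBayes or an adjusted p under 0.10 (Txnrd1 and Nfe2l2 each time), and 0 to 1 with single arrays left out. Members that changed sign were Gclc (−0.0110 with knockout-labelled arrays 3 and 4 alone), Srxn1 (0.0717, likewise) and Gclm (−0.0526 to 0.0062 with single arrays left out), none of them called. Pathway genes called higher, 16 as reported, were 10 with knockout-labelled arrays 1 and 2 alone and 3 with a 1.5-fold minimum. Those called lower, 8 as reported, were 4 under the replicate block, 2 with knockout-labelled arrays 1 and 2 alone, 13 at an adjusted p under 0.10, 0 with a 1.5-fold minimum, and 2 to 10 with single arrays left out, lowest without wild-type array 4. The cause of these moves was not tested. The replicate block, with numbers not shown to pair the arrays, also lost the calls of Oplah, Sod1, Sod3 and Txnrd3. Fits without an array or with 2 knockout-labelled arrays hold fewer samples.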
